A study of Homo sapiens with 18 samples.

Results

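EXACT1 is a microRNA (miRNA) delivered on a plasmid, and this comparison measured the host transcripts of SH-SY5Y cells that received it against SH-SY5Y cells that received the same kind of plasmid without it. The series belongs to work on a self-regulating gene therapy for a mouse model of Rett syndrome, and its 18 polyadenylated RNA libraries come from 3 human cell lines. The 6 libraries of the SH-SY5Y comparison were chosen by their titles. They were 3 of cells nucleofected with a plasmid that encodes EXACT1 and mNeonGreen, a green fluorescent protein (EXACT1 group) and 3 of cells nucleofected with a plasmid for mNeonGreen alone (control group). All 6 libraries thus come from transfected cells, and none from cells without plasmid. SH-SY5Y is an established neuroblastoma line, a culture model of sympathetic neuron precursors. The sources used here give neither the plasmid dose nor the time between nucleofection and harvest of these cells. The labels do not say whether the replicates were separate cultures, so every p-value measures only the spread between these libraries, which may be technical. The levels of mNeonGreen and of EXACT1, and the share of cells that took up plasmid, were not analysed here.

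A miRNA works as the guide of an Argonaute protein. The primary transcript is cut in the nucleus by DROSHA and DGCR8, the hairpin is exported by XPO5 (exportin 5), and DICER1 releases the short duplex from which AGO1 to AGO4 take up 1 strand. The loaded Argonaute binds messengers that pair with the seed, bases 2 to 8 from the 5′ end of the miRNA, mostly in 3′ untranslated regions (UTRs), and lowers their stability or translation. An added miRNA can therefore be looked at in 3 ways in a transcriptome: as a fall of messengers with matches to its seed, as a shift of messengers that other miRNAs control, and as a response to the foreign nucleic acid. The sequence of EXACT1 was not used here, so the first was not analysed. For the second, 13 mature miRNAs of neuronal and proliferating cells were taken from RefSeq (GRCh38.p14). Of these, 6 are shown, with the seed in capitals, because the target lists below rest on the first and second and the other 4 cover the range of the seed results.

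let-7a-5p: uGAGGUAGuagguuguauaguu
miR-17-5p: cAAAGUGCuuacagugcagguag
miR-9-5p: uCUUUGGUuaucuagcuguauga
miR-181a-5p: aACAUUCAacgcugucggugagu
miR-30a-5p: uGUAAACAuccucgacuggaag
miR-125b-5p: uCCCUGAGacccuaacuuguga

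The 6 libraries held between 66056962 and 72587614 counts each. Control replicate 2 stood apart from the other 5. Its mean correlation with the other controls over genes was 0.927 on the log2 scale, and the first principal component, with 82.1% of the variance, separated it from all others. Ribosomal protein transcripts took 13.0% of its counts, against 5.45% to 5.89% in the other 5 libraries. Its ratio to the other 2 controls also ran with transcript length. The median log2 ratio was 1.14 in the quintile of protein-coding genes with the shortest transcripts and −0.97 in the quintile with the longest, while that of control replicate 3 over control replicate 1 was −0.06 and 0.11. In all, 35.9% of tested genes differed at least 2-fold between control replicate 2 and the mean of the other controls, and 3.04% between control replicates 3 and 1. What set this library apart was not tested. Log2 fold changes and list medians are given with it, over 6 libraries, and without it, in what is called the 5-library set.

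The cells carried markers of their lineage, but also some of other lineages. Levels are given throughout as CPM, counts scaled to a common library total after TMM normalisation. GATA3 and HAND2, transcription factors of sympathetic neurons, lay between 321 and 356 and between 783 and 1180 CPM over the 6 libraries. STMN2, a microtubule-binding protein of growing neurites, lay between 1452 and 1911 CPM. DBH, which turns dopamine into noradrenaline, lay between 821 and 2889 CPM, and its highest value was that of control replicate 2. TH, the rate-limiting enzyme of the same pathway and a usual marker of the lineage, was at or near 0 (0 to 0.394 CPM). Other mesenchymal and glial markers were mixed. Of 28 listed mesenchymal markers, 24 had a mean over 1 CPM, among them VIM (325 to 758 CPM), FN1 (87.4 to 157 CPM), COL1A1 (7.21 to 30.4 CPM) and CD44 (8.74 to 13.6 CPM), while PRRX1, a factor of mesenchymal neuroblastoma cells, had no counts in any of the 6 libraries. Of 17 listed Schwann and glial markers, 4 had a mean over 1 CPM, among them GLUL (197 to 291 CPM), PMP22 (30.4 to 59.5 CPM) and NGFR (13.4 to 44.8 CPM), and 5 had no counts in any library, among them SOX10, a factor of Schwann cells. Hepatocyte markers were also present, among them ALB (87.4 to 138 CPM) and AFP (27.6 to 46.2 CPM), while TTR lay between 0.230 and 0.566 CPM. In bulk RNA, fewer cells of a type and less RNA per cell cannot be told apart.

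With all 6 libraries, edgeR's quasi-likelihood test called no gene (0 of 19853, 0.0%) at a Benjamini-Hochberg adjusted p under 0.05. At an unadjusted p under 0.05 there were 200 genes (1.01%). DESeq2 called 9 genes (0.0453%), and voom of limma, run with sample weights, called 1 gene (0.00504%), the antisense gene ENTPD1-AS1. Without control replicate 2, edgeR called 1 of 20718 genes (0.00483%), again ENTPD1-AS1, and 286 genes (1.38%) had an unadjusted p under 0.05. In the same 5 libraries DESeq2 called 19 genes (0.0917%) and limma voom 2 genes (0.00965%), ENTPD1-AS1 and ENTPD1. The 3 EXACT1 libraries lay above all 3 controls for 765 genes (3.85%) and below them for 830 genes (4.18%). Without control replicate 2 the 3 lay above both remaining controls for 1306 genes (6.58%) and below them for 1433 (7.22%). The genes described next are the 20 with the smallest p at a mean of at least 1 CPM, and those that a second tool called. None of the 20 passed in edgeR with 6 libraries (adjusted p = 0.796 for each), and 11 were higher and 9 lower with EXACT1. For all 20, the EXACT1 libraries lay on 1 side of every control. All 20 kept their sign without control replicate 2, which the lack of overlap fixed in advance.

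SCN8A encodes the voltage-gated sodium channel Nav1.6, which sits at the axon initial segment and carries much of the sodium current that fires a neuron. The gene lies on chromosome 12 (GRCh38, 51590266 to 51812864, plus strand). Its level was 16.8, 14.5 and 18.5 CPM in EXACT1 replicates 1 to 3 and 4.93, 5.06 and 6.28 CPM in control replicates 1 to 3. All 3 EXACT1 libraries thus lay above all 3 controls, and control replicate 2 sat among the other controls. The log2 fold change (log2FC, EXACT1 over control) was 1.61 (SE 0.23) with 6 libraries (edgeR, adjusted p = 0.796) and 1.56 (SE 0.18) in the 5-library set (edgeR, adjusted p = 0.0597), and DESeq2 called the gene in both sets. The only tested gene within its span is HNRNPA3P10, an intronic pseudogene on the opposite strand at 0.354 to 2.03 CPM.

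The most abundant of the other sodium channel genes lay closer to 0. Of 15 tested members of the list of sodium channel subunits and their partners, SCN8A included, 9 had a log2FC above 0. The median was 0.14, against −0.015 over all 19853 genes. The median of 16 members in the 5-library set was 0.04. SCN9A, the Nav1.7 channel of sympathetic and sensory neurons and the most abundant member, stood at 67.3, 92.9 and 104 CPM with EXACT1 and 61.1, 32.3 and 94.8 CPM in the controls, and the groups overlapped. The log2FC values with 6 libraries were 0.49 (SE 0.41) for SCN9A, 0.43 (SE 0.48) for SCN3A and 0.14 (SE 0.21) for the beta subunit gene SCN3B. Without control replicate 2 they were 0.18 (SE 0.29), 0.04 (SE 0.15) and 0.04 (SE 0.11). No member was called in edgeR in either set.

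ENTPD1 and ENTPD1-AS1 lie on opposite strands of chromosome 10 and differed in opposite directions. ENTPD1 (95711779 to 95869695, plus strand) encodes CD39, an enzyme of the cell surface that degrades extracellular ATP and ADP. ENTPD1-AS1 (95753206 to 96090238, minus strand) is a long antisense gene, and 454 bases of annotated exon are shared by both. ENTPD1-AS1 stood at 4.59, 4.95 and 4.45 CPM with EXACT1 and at 33.8, 11.7 and 40.9 CPM in the controls. The 3 EXACT1 values were close together and below every control, and control replicate 2 was the lowest control. The log2FC was −2.63 (SE 0.47) with 6 libraries (edgeR, adjusted p = 0.796). In the 5-library set ENTPD1-AS1 fell by 3.00 on the log2 scale (SE 0.13, edgeR, adjusted p = 4.58e-05).

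ENTPD1 itself stood at 63.4, 55.2 and 56.3 CPM with EXACT1 and at 29.01, 15.5 and 33.0 CPM in the controls, with no overlap. Its log2FC was 1.17 (SE 0.32) with 6 libraries and 0.91 (SE 0.10) in the 5-library set (edgeR, adjusted p = 0.796 and 0.0597), and DESeq2 called ENTPD1 in the set of 5 and not in the set of 6. The sum of both genes was 68.0, 60.2 and 60.7 CPM with EXACT1 and 62.8, 27.2 and 73.9 CPM in the controls. The EXACT1 values lay within the range of the controls, whose lower end was control replicate 2. Without that library, EXACT1 replicates 2 and 3 lay below both remaining controls and EXACT1 replicate 1 between them. The antisense gene took 6.74% to 8.23% of that sum with EXACT1 and 43.1% to 55.3% in the controls. The sources used here do not give the strand setting of the counting, and without it reads of the shared exons cannot be assigned to 1 of the genes.

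Other enzymes and receptors of extracellular nucleotides were followed in a list of their own. Of 23 tested members of that list, ENTPD1 included, 9 lay above 0 with 6 libraries. None was called in edgeR, and the median was −0.47 with 6 libraries and −0.09 without control replicate 2. ENTPD4, a nucleotidase of the Golgi and lysosomes, had a log2FC of 0.23 (SE 0.36) with 6 libraries and −0.08 (SE 0.08) in the 5-library set. ENTPD6 had −0.56 (SE 0.34) and −0.15 (SE 0.14). CCNJ, a cyclin gene inside the span of ENTPD1-AS1 on the opposite strand, had 0.49 (SE 0.42) and 0.13 (SE 0.10).

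GDF1 and CERS1 share a transcription unit on chromosome 19 and 2517 exon bases on the same strand, so how their reads were divided is uncertain. GDF1, a ligand of the TGF-beta family, stood at 4.20, 3.28 and 2.03 CPM with EXACT1 and 11.0, 9.55 and 9.30 CPM in the controls, without overlap. Its log2FC was −1.65 (SE 0.33) with 6 libraries and −1.68 (SE 0.28) in the 5-library set (edgeR, adjusted p = 0.796 and 0.586), and DESeq2 called it in both sets. CERS1, a ceramide synthase of neurons, stood at 14.3, 14.0 and 15.0 CPM with EXACT1 and 11.0, 70.5 and 6.49 CPM in the controls. Its sign depended on 1 library: the log2FC was −1.02 (SE 0.85) with control replicate 2 and 0.72 (SE 0.21) without it. The summed level of both genes was 18.5, 17.2 and 17.0 CPM with EXACT1 and 21.9, 80.0 and 15.8 CPM in the controls, so the groups overlapped. The most abundant ceramide synthase genes lay near 0 without control replicate 2, with a log2FC of −0.014 (SE 0.07) for CERS2 and 0.015 (SE 0.09) for CERS6. With 6 libraries the values were −0.16 (SE 0.21) and 0.43 (SE 0.51).

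Many of the genes with the smallest p share exons with a neighbour. Of the 20, 16 (80.0%) had exons that overlap those of another annotated gene, against 49.6% of all tested genes with a mean of at least 1 CPM, and 10 (50.0%) did so on the same strand, against 17.1%. ENSG00000258653 is a protein-coding gene on chromosome 14 whose annotated exons cover parts of both PTGR2 and ZNF410. It stood at 17.1, 13.3 and 13.0 CPM with EXACT1 and 6.35, 1.93 and 6.30 CPM in the controls. Its log2FC was 1.57 (SE 0.47) with 6 libraries and 1.19 (SE 0.17) in the 5-library set (edgeR, adjusted p = 0.796 and 0.226), and DESeq2 called it in the set of 5 and not in the set of 6. ZNF410, a zinc finger transcription factor with 2528 of those exon bases, stood at 59.9, 66.0 and 68.2 CPM with EXACT1 and 73.9, 71.8 and 83.7 CPM in the controls, with a log2FC of −0.24 (SE 0.19) with 6 libraries and −0.29 (SE 0.09) in the 5-library set. The sum of ENSG00000258653 and ZNF410 was 77.03, 79.3 and 81.2 CPM with EXACT1 and 80.3, 73.8 and 90.0 CPM in the controls, and the groups overlapped. Its sum with PTGR2 did not overlap, at 44.1, 38.5 and 39.7 CPM with EXACT1 and 32.9, 20.3 and 35.7 CPM in the controls.

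ENSG00000260342 shares exons with RPS15A, a ribosomal protein gene, and ARL6IP1, an endoplasmic reticulum protein gene. It stood at 8.91, 24.7 and 18.1 CPM with EXACT1 against 3.98, 3.13 and 1.58 CPM in the controls, and DESeq2 called it in the set of 6 and not in the set of 5. RPS15A stood at 446, 446 and 409 CPM with EXACT1 and 477, 1108 and 505 CPM in the controls, lower in all 3 EXACT1 libraries. Its log2FC was −0.68 (SE 0.36) with 6 libraries and −0.18 (SE 0.08, 95% interval −0.35 to −0.011) in the 5-library set (edgeR, adjusted p = 0.796 and 1.0). ARL6IP1 stood at 460, 474 and 451 CPM with EXACT1 and 450, 239 and 501 CPM in the controls, which overlapped. The readthrough gene RAB4B-EGLN2 reached 19.1 CPM in control replicate 1 and at most 0.65 CPM in the other 5 libraries, so the size of its difference rests on that control. PCDHGB2, a cell adhesion gene of the protocadherin gamma cluster whose members share their last exons, stood at 5.64, 9.55 and 11.7 CPM with EXACT1 and 3.35, 0.729 and 2.56 CPM in the controls, and DESeq2 called it in the set of 5 and not in the set of 6. Its neighbour PCDHGB7, the most abundant of the PCDHGB genes, overlapped between the groups at 87.3 to 119 and 97.1 to 126 CPM. PCDHGA1, PCDHGA5, PCDHGA6, PCDHGA8 and PCDHGB1 also lay above all controls in every EXACT1 library, and the other members of the cluster overlapped. Of all tested genes, 3.85% lay above all 3 controls in the same way. Because members of the cluster share their last exons, their levels are not separate observations. PCDHGA6 stood at 4.52, 3.23 and 3.36 CPM with EXACT1 and 2.40, 1.38 and 1.95 CPM in the controls. None of these neighbours passed in edgeR with 6 libraries.

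RICTOR encodes the scaffold of mTORC2, a kinase complex of growth control. It stood at 20.9, 18.9 and 23.0 CPM with EXACT1 and at 10.2, 5.75 and 13.0 CPM in the controls. All EXACT1 libraries were above all controls, of which control replicate 2 was the lowest. The log2FC was 1.11 (SE 0.33) with 6 libraries and 0.85 (SE 0.15) in the 5-library set (edgeR, adjusted p = 0.796 and 0.629), and DESeq2 called RICTOR in the set of 5 and not in the set of 6. TEX9 stood at 9.26, 8.02 and 7.89 CPM with EXACT1 against 5.06, 2.84 and 4.54 CPM, a log2FC of 1.01 (SE 0.29) with 6 libraries and 0.80 (SE 0.18) in the 5-library set, and DESeq2 called it in the set of 5 and not in the set of 6. MNS1, which overlaps TEX9 on the opposite strand, had 0.14 (SE 0.24) and −0.02 (SE 0.14).

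Lower with EXACT1 were TREX2, a DNA exonuclease gene, at 1.14, 0.614 and 0.677 CPM against 3.12, 10.6 and 3.11 CPM. Its log2FC was −2.79 (SE 0.62) with 6 libraries and −1.94 (SE 0.35) in the 5-library set, and DESeq2 called it in both sets. Its exons are shared in part with HAUS7. OSGIN1, a gene induced by oxidative stress, stood at 1.12, 0.549 and 0.623 CPM against 2.55, 1.97 and 1.42 CPM, with a log2FC of −1.37 (SE 0.43) and −1.38 (SE 0.43) in the sets of 6 and 5. GSK3B-DT, a noncoding gene beside the kinase gene GSK3B, stood at 1.08, 0.980 and 1.31 CPM against 3.00, 2.01 and 2.44 CPM, with −1.14 (SE 0.32) and −1.27 (SE 0.30). None of these 3 passed in edgeR in either set (adjusted p between 0.629 and 1.0), and DESeq2 called neither OSGIN1 nor GSK3B-DT.

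The pseudogene ZNG1DP stood at 4.86, 5.70 and 2.14 CPM with EXACT1 and at 0.911, 1.44 and 0.685 CPM in the controls, a log2FC of 2.07 (SE 0.49) with 6 libraries and 2.40 (SE 0.45) in the 5-library set, and DESeq2 called it in the set of 5 and not in the set of 6. As a copy within a gene family, its counts are uncertain. Other genes among the 20 were also without overlap between the groups. RBM26-AS1 (3.15 to 4.51 CPM in the controls), FAM133DP (0.433 to 1.62 CPM) and ENSG00000285641 (6.06 to 10.8 CPM) were higher with EXACT1, at 6.16 to 10.2, 2.44 to 4.14 and 13.4 to 23.4 CPM. CAPN1-AS1 (1.03 to 1.79 CPM in the controls) and ENSG00000159239 (1.46 to 9.26 CPM) were lower, at 0.614 to 0.717 and 0.170 to 1.12 CPM. Of these 5, DESeq2 called ENSG00000159239, in the set of 5 alone.

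DESeq2 with 6 libraries also called 3 genes that had no counts in 1 group. LRRC70 had 30, 19 and 20 counts with EXACT1 and none in the controls. It shares 1279 exon bases on the same strand with IPO11, which stood at 17.3 to 50.4 CPM, so its counts are uncertain. PHEX, a peptidase gene of phosphate balance, had 20, 39 and 14 counts with EXACT1 and none in the controls. C16orf96 had none with EXACT1 and 16, 15 and 32 counts in the controls. Against a floor of 3 counts per library, LRRC70 was at least 6.58-fold and PHEX at least 6.93-fold higher with EXACT1, and C16orf96 at least 7.81-fold lower. All 3 lay under 0.6 CPM in every library, and edgeR called none of them (adjusted p = 0.796 for each). The readthrough pseudogene TBC1D3P1-DHX40P1, also called by DESeq2 alone, had 0.328, 0.601 and 0.636 CPM with EXACT1 and 0.0536, 0.0591 and 0.0395 CPM in the controls.

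How small a difference these libraries could bound depended on the level of the gene and on control replicate 2. With all 6 libraries, the 95% interval of the log2FC lay within 1 unit of 0, a 2-fold difference in either direction, for 29.4% of genes. Leaving out control replicate 2 raised the share to 63.3%. The biological coefficient of variation was 44.1% with that library and 27.2% without it. In the set of 5 libraries, the interval lay within 1 unit for 97.5% of the 8178 genes at 10 to 100 CPM and for 2316 of 2343 genes (98.8%) above 100 CPM, with a median half-width of 0.25 and 0.19 log2 units. Under 1 CPM this held for 1.43% of 5050 genes, and for the rest of them a 2-fold difference could not be bounded at this depth. No gene above 100 CPM had a fitted difference past 2-fold in the set of 5, and 13 of 8178 at 10 to 100 CPM did.

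The genes of the miRNA pathway did not pass the test with EXACT1. AGO2, the Argonaute that cuts fully paired targets, stood at 110, 88.0 and 95.8 CPM with EXACT1 and at 85.9, 35.9 and 87.4 CPM in the controls. The groups did not overlap, but the gap to control replicate 3 was narrow, and the log2FC was 0.49 (SE 0.36) with 6 libraries and 0.18 (SE 0.10) in the 5-library set. DICER1 stood at 87.8, 86.7 and 89.2 CPM with EXACT1 and at 56.8, 33.3 and 88.1 CPM in the controls, which overlapped, with a log2FC of 0.57 (SE 0.36) and 0.28 (SE 0.18). DROSHA, DGCR8 and XPO5 had log2FC values of 0.34 (SE 0.33), 0.15 (SE 0.21) and 0.11 (SE 0.19) with 6 libraries and 0.06 (SE 0.08), 0.025 (SE 0.09) and 0.027 (SE 0.07) in the 5-library set. For AGO1, AGO3 and AGO4 they were 0.37 (SE 0.28), 0.37 (SE 0.32) and 0.37 (SE 0.42) with 6 libraries and 0.13 (SE 0.09), 0.11 (SE 0.11) and 0.013 (SE 0.13) in the 5-library set. Of the 31 tested pathway genes, 28 lay above 0 with 6 libraries and the median was 0.37. In the 5-library set 26 lay above 0 and the median was 0.08, and the 95% interval of 30 of the 31 lay within 1 unit of 0. In control replicate 2 the median of these genes was 1.11 log2 units below the other controls.

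Targets of 2 miRNA families were followed as a readout of the endogenous miRNAs. The let-7 list holds growth and oncofetal genes that let-7 lowers, among them CCND1 (a cyclin of G1), HMGA1 and NRAS. Of 26 tested members 18 lay above 0, with a median of 0.15, and in the 5-library set 19 did and the median was 0.04. CCND1, the most abundant, stood at 934, 912 and 964 CPM with EXACT1 and 925, 811 and 914 CPM in the controls, and its log2FC was 0.08 (SE 0.19) with 6 libraries and 0.026 (SE 0.07) in the 5-library set. Of 22 tested targets of the miR-17 family 19 lay above 0, with a median of 0.24, and without control replicate 2 there were 12 and the median was 0.04. The cell cycle factors E2F1 and RB1 had log2FC values of −0.58 (SE 0.42) and 0.36 (SE 0.47) with 6 libraries and 0.04 (SE 0.08) and −0.03 (SE 0.09) in the 5-library set. None of these targets was called.

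The seeds printed above were then looked up over all tested genes with an annotated 3′ UTR and a mean of at least 1 CPM. For each of the 13 miRNAs, the reverse complement of the seed (CTACCTC for let-7a, GCACTTT for miR-17, TGAATGT for miR-181a, CTCAGGG for miR-125b), on the messenger's strand only, was searched in the longest annotated 3′ UTR of these 12533 genes. The let-7a word was found in 11.3% of these UTRs, the miR-17 word in 25.6%, the miR-181a word in 22.1% and the miR-125b word in 16.7%. With 6 libraries, the median log2FC of genes with the word minus that of genes without it ran from −0.05 for miR-125b to 0.32 for miR-181a. Without control replicate 2 it ran from 0.011 for miR-125b to 0.036 for miR-181a, and it was 0.022 for let-7a, 0.019 for miR-17, 0.024 for miR-9 and 0.035 for miR-30a. Within terciles of UTR length the differences for the 13 miRNAs ran from −0.31 to 0.43 with 6 libraries and from −0.02 to 0.028 without control replicate 2. The UTR length itself went with the 6-library values: the median log2FC was −0.42 in the tercile with the shortest UTRs and 0.24 in the tercile with the longest, and −0.026 and 0.028 without control replicate 2. Genes are not replicates, and these medians are descriptions without a test.

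Genes of the antiviral and inflammatory responses showed no call with EXACT1. Of 29 tested interferon-stimulated genes 9 lay above 0 with 6 libraries and 9 without control replicate 2, with medians of −0.18 and −0.10. B2M, the light chain of class I histocompatibility molecules, which interferon raises, stood at 109, 121 and 119 CPM with EXACT1 and at 125, 113 and 120 CPM in the controls. The groups overlapped, and its log2FC was −0.03 (SE 0.19) with 6 libraries and −0.08 (SE 0.08) in the 5-library set. The sensors of foreign RNA and DNA had a median of 0.18 over 14 tested members and 0.030 over 16 without control replicate 2. EIF2AK2, the kinase PKR that double-stranded RNA activates, had a log2FC of 0.29 (SE 0.29) with 6 libraries and 0.06 (SE 0.10) in the 5-library set. ADAR had 0.29 (SE 0.26) and 0.09 (SE 0.07), and the adaptor MAVS −0.13 (SE 0.22) and 0.04 (SE 0.07). NF-kB targets were sparse, with 13 of 21 tested and medians of −0.41 and −0.0017 in the sets of 6 and 5. NFKBIA had a log2FC of −0.03 (SE 0.19) and 0.006 (SE 0.11).

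Stress and damage programmes were also without a call. With 6 libraries the median was −0.21 over 27 genes of the integrated stress response, 0.04 over 23 endoplasmic reticulum chaperones, −0.014 over 22 heat shock genes and 0.06 over 27 targets of p53. In the 5-library set the medians were −0.01, −0.06, −0.04 and −0.08. ATF4, the transcription factor of the integrated stress response, stood at 163, 168 and 154 CPM with EXACT1 and 181, 274 and 167 CPM in the controls. The groups overlapped, and its log2FC was −0.36 (SE 0.25) with 6 libraries and −0.11 (SE 0.08) in the 5-library set. Of the 23 chaperone genes, 13 lay above 0 with 6 libraries and 1 without control replicate 2. HSP90B1 had 0.21 (SE 0.33) with 6 libraries and −0.07 (SE 0.10) in the 5-library set, and CALR −0.60 (SE 0.36) and −0.12 (SE 0.11). MDM2, the ubiquitin ligase induced by p53, had 0.28 (SE 0.34) and −0.012 (SE 0.08), and BAX, a pro-apoptotic p53 target, −1.07 (SE 0.54) and −0.19 (SE 0.13). BAX was high in control replicate 2, at 222 CPM against 52.1 to 72.5 CPM in the other 5 libraries. The median over 27 apoptosis regulators was 0.000387 with 6 libraries and −0.008 without control replicate 2.

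Genes that mark the neuronal state of these cells gave no call either. Of 33 tested noradrenergic neuroblast markers 15 lay above 0 with 6 libraries and 18 without control replicate 2, with medians of −0.03 and 0.02. STMN2 stood at 1548, 1725 and 1703 CPM with EXACT1 and 1452, 1636 and 1911 CPM in the controls, a log2FC of −0.0071 (SE 0.21) with 6 libraries and −0.02 (SE 0.12) in the 5-library set. With 6 libraries the medians were 0.16 over 29 synaptic vesicle genes, −0.08 over 37 genes of the neuronal cytoskeleton, 0.08 over 22 potassium channel genes and 0.09 over 13 calcium channel genes. In the 5-library set they were 0.008, 0.015, 0.12 and 0.0095. SNAP25, a protein of vesicle fusion, stood at 120, 177 and 168 CPM with EXACT1 and 112, 92.0 and 184 CPM in the controls. Replicate 1 of both groups and control replicate 2 were low, and the groups overlapped. KCNH2, a potassium channel gene, had a log2FC of −0.53 (SE 0.33) with 6 libraries and −0.12 (SE 0.11) in the 5-library set. Mesenchymal markers had a median of −0.25 in both sets, with 7 of 26 above 0 with 6 libraries and 5 of 26 without control replicate 2. COL3A1, DCN and LUM were high in replicate 1 of both groups, while TWIST1 and PDGFRA were not. COL3A1 stood at 55.5 CPM in EXACT1 replicate 1 and 61.9 CPM in control replicate 1, against 3.90 to 7.93 CPM in the others. In the 5-library set replicate 1 was 1 of 2 controls but 1 of 3 EXACT1 libraries, and its part in the median was not tested. The summed level of the mesenchymal markers was 1406 to 1696 CPM with EXACT1 and 1340 to 1999 CPM in the controls, so the groups overlapped.

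Cell division genes lay close to 0 as well. The 35 tested genes of G1/S and DNA replication had a median of −0.007 with 6 libraries and −0.0012 without control replicate 2, and in the latter set all 35 intervals lay within 0.5 log2 units of 0. MCM3, a subunit of the replicative helicase, stood at 371, 401 and 412 CPM with EXACT1 and 374, 384 and 410 CPM in the controls. The 32 mitosis genes had a median of 0.08 and −0.016, and MKI67 a log2FC of 0.42 (SE 0.30) with 6 libraries and 0.19 (SE 0.17) in the 5-library set, with 273 CPM in control replicate 1 and 406 CPM in control replicate 3.

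Several lists with wide 6-library medians were ones in which control replicate 2 lay far from the other controls. All 78 cytosolic ribosomal protein genes lay below 0 with 6 libraries, with a median of −0.82, and in the 5-library set the median was −0.06, 12 lay above 0 and all 78 intervals lay within 0.5 log2 units of 0. RPS2 stood at 1384, 1513 and 1401 CPM with EXACT1 and 1475, 6736 and 1453 CPM in the controls. The nuclear genes of the respiratory chain had a median of −0.67 over 76 members with 6 libraries and −0.05 without control replicate 2. For the proteasome the medians over 31 members were −0.39 and −0.06, and for glycolysis and hypoxia over 28 members −0.19 and 0.025. GAPDH, a glycolytic enzyme, stood at 2419, 2637 and 2410 CPM with EXACT1 and 2542, 10551 and 2457 CPM in the controls. In all, the 34 lists held 951 tested genes with 6 libraries, of which edgeR called 0 and 4 had an unadjusted p under 0.05. Over all tested genes, 1.01% had such a p. List members that DESeq2 called include SCN8A, in both sets, and ENTPD1, in the set of 5. The 5-library set held 957, with 0 called in edgeR and 14 at an unadjusted p under 0.05, against 1.38% of all tested genes. Of the 957, 798 had an interval within 1 unit of 0. In that set 31 of the 34 medians lay within 0.1 log2 units of 0.

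Mitochondrially encoded transcripts kept a lower median without control replicate 2, and their level differed among the controls. All 13 lay below 0 in both sets, with medians of −0.72 and −0.30. MT-CO2, a subunit of cytochrome oxidase, stood at 3348, 2908 and 3208 CPM with EXACT1 and 4352, 7899 and 3355 CPM in the controls. Its log2FC was −0.72 (SE 0.35) with 6 libraries and −0.29 (SE 0.11) in the 5-library set. The share of counts from mitochondrial transcripts was 3.44% in control replicate 1 and 3.71% in control replicate 2, but 2.12% in control replicate 3, within the EXACT1 range of 2.10% to 2.45%.

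The second principal component, with 8.34% of the variance, placed the replicate 1 libraries of both plasmids together, at 17.0 for EXACT1 and 27.0 for control, with EXACT1 replicates 2 and 3 and control replicate 3 between −12.3 and −16.1. VIM, the intermediate filament of mesenchymal cells, followed it, at 537 CPM in EXACT1 replicate 1 and 758 CPM in control replicate 1 against 388, 347 and 325 CPM in those 3. The labels name no batch. VIM was 500 CPM in control replicate 2.

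HepG2, a liver cancer line that was given the same pair of plasmids by lipid transfection, allows the difference between lines to be tested in 1 fit of 12 libraries. The 2 lines differ in the way of transfection, so line and method cannot be told apart. No gene differed in its response at an adjusted p under 0.05 (edgeR, 0 of 22009, 0.0%), and 1907 genes (8.66%) had an unadjusted p under 0.05. SCN8A had a log2FC of −0.65 (SE 0.51) in HepG2, and SH-SY5Y minus HepG2 was 2.24 (SE 0.57, edgeR, adjusted p = 0.487). In HepG2, EXACT1 replicate 1 stood apart, with a mean correlation of 0.838 with its group against 0.913 to 0.992 for the other 5 libraries. Without it and control replicate 2 of SH-SY5Y, the difference for SCN8A was 1.84 (SE 0.36, edgeR, adjusted p = 0.304). For ENTPD1-AS1 the difference was −2.13 (SE 0.97) with 12 libraries and −2.97 (SE 0.60) with 10 (edgeR, adjusted p = 0.487 and 0.345), and for ENTPD1 1.498 (SE 0.48) and 1.08 (SE 0.32). RICTOR differed by 1.74 (SE 0.79) and 0.99 (SE 0.17). Of the 20 SH-SY5Y genes with the smallest p, 18 were tested in HepG2 and 15 of them had the opposite sign there. Without the 2 outlying libraries, 19 were tested and 8 had the opposite sign, so the count rests on those libraries. ZNG1DP had a difference of 4.47 (SE 0.82) with 12 libraries and 5.06 (SE 0.88) with 10 (edgeR, adjusted p = 0.487 and 0.289), and DESeq2 called it with 12. No other gene named above passed in edgeR, DESeq2 or limma voom for the difference between the lines.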

How the data were processed

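For 18 libraries, the authors deposited raw counts by Ensembl gene ID in 1 table, not normalized. Per the labels' protocols, a strand-marking polyA kit was used. The tools named in the submitters' processing notes are limma, edgeR, StringTie, HISAT2 and cutadapt, with build GRCh38 (hg38). The sources used here do not give their versions, settings or the strand setting of the counting. Of 60612 rows, 42020 had a gene symbol, and the others keep their ID. Each library was counted as 1 replicate and none was a copy of another.

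The 6 SH-SY5Y libraries were tested with edgeR 4.0.16 in R 4.3.3: filterByExpr, TMM, robust quasi-likelihood F test, two-sided. Genes were called where the p adjusted by Benjamini and Hochberg lay under 0.05. The log2 fold change (log2FC) divides EXACT1 by control. Its standard error (SE) was calculated as the absolute log2FC over the square root of the F statistic of that test. The 95% interval was built on that SE, and both are approximations. Per-gene values are CPM of TMM-scaled libraries. The difference from HepG2 was the interaction of line and plasmid over 12 libraries. HEK293A was not used here. Alternatives were DESeq2 1.42.0, limma 3.58.1 voom with sample weights, other scalings and filters, a replicate block and leaving out each library. The scripts were tested on simulated data.

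Named genes were those called, the 20 with the smallest p at a mean of at least 1 CPM, those called by DESeq2, limma voom or edgeR without control replicate 2, tested genes overlapping them, the miRNA enzymes, and up to 4 of the most abundant members of each of 34 lists (1055 entries). Members and lists were chosen with earlier results of these data known. Genes that only DESeq2 without control replicate 2 called were added after seeing the data. Positions and 3′ UTRs of at least 30 bases come from GENCODE 29. Of 14 miRNAs looked up in RefSeq, 13 were found. Log2 ratios between libraries used a pseudocount of 0.5 CPM. Some genes that these rules name are not reported here.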

Additional observations from a re-analysis of the deposited data

How the results depend on the processing

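The count of genes called with EXACT1 in SH-SY5Y, 0 in edgeR, was 9 with DESeq2 and 1 with limma voom. Without control replicate 2 it was 19 with DESeq2, 2 with limma voom, 1 with RLE scaling and 1 with upper-quartile scaling, settings added after seeing the data. Leaving out 1 library at a time gave 0 to 1 calls. It stayed 0 with RLE or upper-quartile scaling, all genes kept, a minimum mean CPM of 5, a log2FC of at least 1 and a fit of 12 libraries. The count of genes that differ between SH-SY5Y and HepG2, 0 in edgeR, was 25 with DESeq2, 1 with limma voom (ZNF225-AS1) and 2 without both outlying libraries (ZNF225-AS1 and ENSG00000286403; both genes are named here after their values were seen), and leaving out 1 library gave 0 throughout. A replicate block gave 0 calls in both comparisons. The labels do not say whether the numbers pair the samples. Deviations of same-numbered libraries from their group means correlated at 0.41, 0.19 and 0.008. Those of differently numbered libraries correlated between −0.30 and 0.09. Whether replicates were paired was not tested. The cause of these differences between tools was not tested.

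Among genes named with a log2FC, 12 changed sign under some alternative, and none of these was called. Leaving out 1 library at a time, their log2FC ranged from −0.020 to 0.239 (MNS1), −1.49 to 0.72 (CERS1), −0.80 to 0.045 (E2F1), −0.033 to 0.70 (RB1), −0.075 to 0.030 (B2M), −0.20 to 0.039 (MAVS), −0.092 to 0.025 (NFKBIA), −0.065 to 0.43 (HSP90B1), −0.012 to 0.51 (MDM2), −0.073 to 0.11 (STMN2), −0.28 to 0.053 (ALB) and −0.082 to 0.45 (ENTPD4). With limma voom and sample weights the values were −0.027 (MNS1), 0.57 (CERS1), 0.060 (E2F1), 0.032 (MAVS), −0.11 (HSP90B1), −0.033 (MDM2), 0.094 (STMN2), 0.067 (ALB) and −0.047 (ENTPD4). STMN2, at −0.0071, was also 0.013 in the fit of 12 libraries, 0.021 with all genes kept and 0.000364 with the replicate block.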

Other observations

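Genes that DESeq2 called only without control replicate 2 were looked at after their values were seen. LIMD1-AS1, a noncoding gene beside LIMD1, stood at 1.63, 2.22 and 1.68 CPM with EXACT1 and 0.161, 0.925 and 0.290 CPM in the controls, and edgeR gave a log2FC of 2.02 (SE 0.67, adjusted p = 0.796) with 6 libraries and 3.02 (SE 0.44, adjusted p = 0.226) in that set. The ribosomal protein pseudogenes RPL21P16 and RPL21P75 lay lower with EXACT1 in all libraries. RPL21P16 stood at 61.9, 57.9 and 56.6 CPM with EXACT1 and 76.7, 104 and 94.2 CPM in the controls, and RPL21P75 at 42.8, 37.9 and 36.8 CPM against 55.1, 57.3 and 65.1 CPM. As processed copies of an expressed gene, their counts are uncertain. URGCP-MRPS24 had 0.512 to 1.10 CPM with EXACT1 and none in control replicates 1 and 3, but 1.79 CPM in control replicate 2.

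Hepatocyte transcripts were present in these neuroblastoma libraries. ALB, serum albumin, lay between 87.4 and 138 CPM and AFP, alpha-fetoprotein, between 27.6 and 46.2 CPM over the 6 libraries, while TTR, another secreted liver protein, was under 0.6 CPM. ALB had a log2FC of −0.14 (SE 0.25) with 6 libraries and 0.05 (SE 0.12) without control replicate 2. Of the 28 hepatocyte markers, 20 had a mean over 1 CPM, and their summed level was 264 to 332 CPM with EXACT1 and 275 to 388 CPM in the controls. The source of these transcripts was not tested.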
